A study of Mus musculus with 12 samples.

Results

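Mature bone marrow basophils were compared with Pro-BMPs, the c-Kit+ progenitors that were sorted as carrying E-cadherin (CDH1) and lacking the IgE receptor. The comparison takes in every gene of the table and 6 of the series' 12 libraries, 3 of basophils and 3 of Pro-BMPs. All cells came from bone marrow of C57BL/6 mice, with no age, sex, treatment or genetic change named. Basophils were B220-, CD4-, CD8a-, Ter119-, Sca1- and c-Kit- and positive for CD49b and FceRIa, and CDH1 was not used to sort them. Pro-BMPs were B220-, CD3-, Ter119-, CD11b-, Gr1-, Sca1-, c-Kit+, CD34+, CD16/32+, CDH1+ and FceRIa-. Pre-BMPs shared that gate except for being CDH1- and FceRIa+, and DN-GMPs shared it except for being negative for both. The 3 Pre-BMP libraries are used here to find genes that were alike in basophils and Pro-BMPs but stood apart in the state between them. The c-Kit+ gates also left out CD11b+ and Gr1+ cells, which the basophil gate did not.

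Basophils are rare granulocytes that carry preformed granule proteases, histamine and a high-affinity IgE receptor, FceRI, on their surface. The receptor is built from an IgE-binding alpha chain, a signal-amplifying beta chain and a shared gamma chain, and crosslinking it releases granules, lipid mediators and cytokines such as interleukin-4. They arise from granulocyte-monocyte progenitors, which hold the primary granule proteins of neutrophils, and share a GATA2-dependent path with mast cells. E-cadherin is an adhesion protein best known from epithelia.

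Reads assigned to genes numbered 34195323 to 42502405 in the Pro-BMP libraries and 38246380 to 39471460 in the basophil libraries. Levels are given as CPM, reads per 1000000 of the library size that the authors scaled, so 3 reads correspond to 0.0512 to 0.0694 CPM in these 6 libraries. Reads outside annotated genes made up 7.69% to 8.42% of the Pro-BMP libraries and 11.2% to 12.6% of the basophil libraries, and the authors' scaling set the basophil library sizes to 0.839 to 0.858 of the table's total against 1.05 to 1.07 for Pro-BMPs. Neither the part of these differences nor that of the sort in the results was tested. Pearson correlations over 8652 genes were 0.895 to 0.909 between basophil libraries, 0.922 to 0.927 between Pro-BMP libraries and at most 0.653 between basophil libraries and those of any other group. In bulk libraries fewer cells of a type and less RNA per cell cannot be told apart.

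The sort was checked on the genes of its own antigens and on 4 marker genes. Fcer1a, the alpha chain of the IgE receptor, had 2735, 2771 and 3079 CPM in basophils against 0.419, 0.862 and 3.40 CPM in Pro-BMPs. Kit, the stem cell factor receptor of the progenitor gate, had 314, 290 and 304 CPM in Pro-BMPs and 10.5, 27.9 and 28.8 CPM in basophils. Both genes followed their gates without overlap between the groups. Itga2, which encodes CD49b, averaged 124 ± 35.7 CPM (SD, n = 3) in basophils and 1.08 ± 0.937 CPM (SD, n = 3) in Pro-BMPs, and Cd34 averaged 31.5 and 312 CPM. Cdh1 followed the CDH1 gate in DN-GMPs and Pro-BMPs but not in Pre-BMPs. It had at most 0.149 CPM in the CDH1- DN-GMPs, 56.0, 33.6 and 38.8 CPM in the CDH1+ Pro-BMPs, 157, 104.9 and 178 CPM in the CDH1- Pre-BMPs and 1201, 1064 and 884 CPM in basophils. The Pre-BMP libraries therefore all lay above the Pro-BMP libraries for this transcript, and E-cadherin mRNA does not set the ends of the comparison apart from the Pre-BMPs. Elane, neutrophil elastase, fell from 3771, 4398 and 3795 CPM in Pro-BMPs to 10.1, 21.5 and 23.7 CPM in basophils. Slpi, an inhibitor of that protease, and Hk3, a hexokinase of myeloid cells, were instead low in the Pre-BMPs alone, as the plot of marker genes by library shows.

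**Figure D1:**
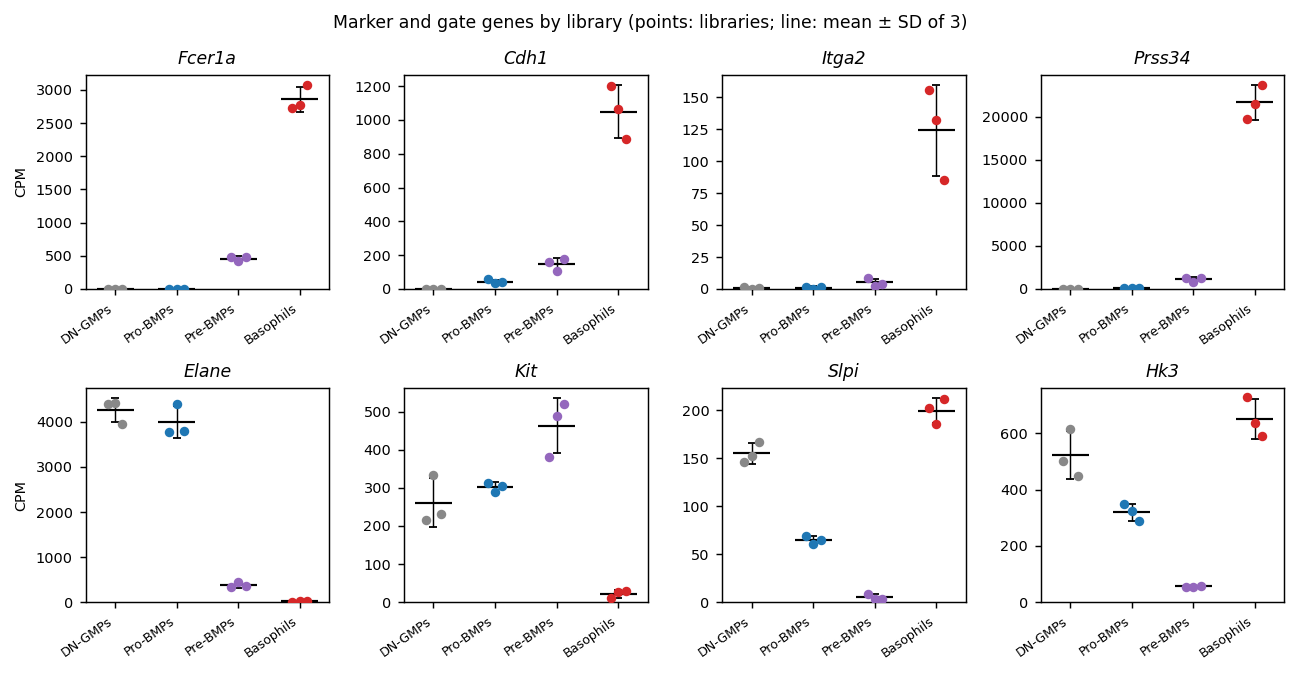
CPM of 8 marker and gate genes (vertical axis, linear, from 0) in the 4 sorted populations; each point is 1 library and the bar and whiskers are the mean ± SD of 3. Fcer1a, Cdh1, Itga2 and Prss34 were highest in basophils, Elane and Kit were lowest there, and Slpi and Hk3 were lowest in Pre-BMPs.

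Promoter sequences are shown for the 3 genes whose dip in Pre-BMPs is described most closely and for the protease with the most reads in basophils, because these genes move in different ways between the same populations. They are the 250 bases before the RefSeq start on GRCm38.p6, 5′ to 3′ on the gene's strand. Capitals mark matches, on either strand, to a C/EBP motif (TTGCNNAA), a PU.1 motif (AGGAAGT) or a GATA motif (AGATAA), and no match overlapped one of another motif.
Slpi (chr2:164356508-164356757, - strand): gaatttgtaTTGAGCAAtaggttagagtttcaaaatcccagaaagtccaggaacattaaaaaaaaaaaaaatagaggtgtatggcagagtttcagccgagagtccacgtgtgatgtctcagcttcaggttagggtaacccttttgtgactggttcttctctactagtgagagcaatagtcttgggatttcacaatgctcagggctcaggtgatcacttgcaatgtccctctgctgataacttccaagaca
Hk3 (chr13:55021386-55021635, - strand): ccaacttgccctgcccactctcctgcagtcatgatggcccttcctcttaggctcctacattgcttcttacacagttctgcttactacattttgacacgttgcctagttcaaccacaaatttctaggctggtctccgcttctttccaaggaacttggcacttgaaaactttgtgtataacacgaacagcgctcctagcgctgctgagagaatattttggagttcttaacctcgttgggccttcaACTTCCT
Clec12a (chr6:129349994-129350243, + strand): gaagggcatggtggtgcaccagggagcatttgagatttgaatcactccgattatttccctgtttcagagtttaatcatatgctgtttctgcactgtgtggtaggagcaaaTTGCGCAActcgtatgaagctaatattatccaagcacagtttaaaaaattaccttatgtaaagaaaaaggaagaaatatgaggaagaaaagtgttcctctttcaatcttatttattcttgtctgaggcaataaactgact
Prss34 (chr17:25298144-25298393, + strand): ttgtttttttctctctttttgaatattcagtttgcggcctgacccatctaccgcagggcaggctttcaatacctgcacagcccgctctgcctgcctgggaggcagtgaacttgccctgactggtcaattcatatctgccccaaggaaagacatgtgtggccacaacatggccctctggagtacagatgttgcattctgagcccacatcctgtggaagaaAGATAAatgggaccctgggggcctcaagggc
The Slpi and Clec12a windows each hold a C/EBP match, the Hk3 window ends in a PU.1 match on the opposite strand, and the Prss34 window holds a GATA match 31 to 26 bases before the start. Such matches are common. Among 32851 windows of this length, 9.56% hold the C/EBP motif, 7.69% the PU.1 motif and 9.99% the GATA motif. By the annotation Slpi lies on chromosome 2 (164354070 to 164389095) and Hk3 on chromosome 13 (55005985 to 55021385) of GRCm38. Clec12a lies on chromosome 6 (129342691 to 129365303) and Prss34 on chromosome 17 (25298394 to 25300165), and all are protein-coding genes. The Slpi and Clec12a windows lie inside these spans, so the RefSeq starts used there are not the outermost annotated starts.

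Across the table, basophils and Pro-BMPs differed widely. Of 14560 genes, 2815 (19.3%) were higher in basophils and 3174 (21.8%) were lower, at an adjusted p under 0.05 by limma's moderated test; 2009 and 2176 of these had a difference of 1 or more on the log2 scale. Counts of calls in each list below stand against these shares, 19.3% higher and 21.8% lower. The 3 basophil libraries did not overlap the 3 Pro-BMP libraries at 7779 genes (53.4%). The median log2 difference over all genes was -0.07 and the median size was 0.91. The share of calls that were higher was 47.0%, but it was 33.0% when reads were scaled to the listed genes alone, which shifts the median of all genes by -0.29. None of the 199 genes chosen by the naming rule reversed under that scaling or quantile normalization. At the extremes, 117 genes called higher had no read in any Pro-BMP library and 189 called lower had none in any basophil library. Such a gene is given a lower bound, set by 3 reads per library. A difference counted as alike when its 95% interval lay within 1 on the log2 scale in either direction, which held for 3214 genes (22.1%), and 6030 genes were neither called nor alike.

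**Figure D2:**
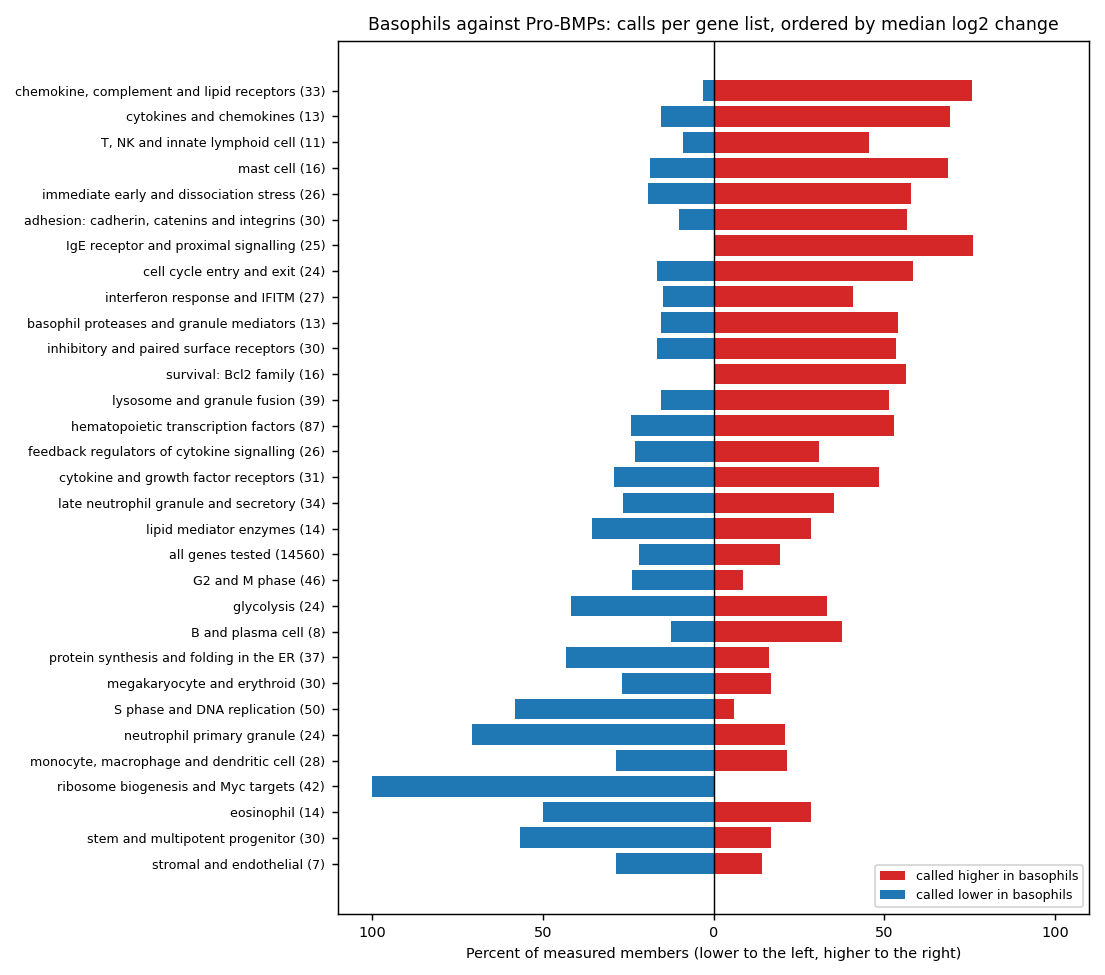
Percent of measured members called higher (right, red) or lower (left, blue) in basophils than in Pro-BMPs for 30 gene lists and for all genes (numbers of measured genes in brackets). Lists are ordered by median log2 difference, from chemokine, complement and lipid receptors (4.73) to stromal and endothelial genes (-3.40), with all genes at -0.07.

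The 3 chains of the IgE receptor and most of its signalling genes were higher in basophils. Of the 25 list members, 19 rose, none fell and 6 were not called, with a median log2 difference of 1.49. Fcer1a differed by 11.36 (SE 0.57, adjusted p = 9.1e-08), from an average of 1.56 CPM in Pro-BMPs. Ms4a2, the beta chain, was already well above that level in Pro-BMPs at 210, 172 and 223 CPM and reached 1743, 1736 and 1766 CPM in basophils. Fcer1g, the gamma chain shared with other Fc receptors, rose from 74.7, 72.6 and 108 CPM to 1024, 990 and 1044 CPM. The 3 chains thus stood at different starting levels relative to their basophil level, and none of the Pro-BMP libraries reached the basophil range for any chain. Lat2, an adaptor of the receptor, rose by 4.82 (SE 0.21), from 18.4 ± 6.08 to 503 ± 16.8 CPM (SD, n = 3 each). Orai1, the calcium channel opened after the receptor signals, changed least among those called, by 0.37 (SE 0.14, adjusted p = 0.048). Ms4a2 and Orai1 were picked after their values were seen.

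In each basophil library Prss34 took more reads than any other gene. It encodes mMCP-11, a serine protease of mouse basophils, and had 146, 53.1 and 99.4 CPM in Pro-BMPs and 19730, 21543 and 23725 CPM in basophils, where it alone took 2.16% to 2.67% of the reads on listed genes. Mcpt8, the basophil protease mMCP-8, rose from 102, 99.2 and 114 CPM to 6686, 7055 and 8250 CPM, a log2 difference of 6.12 (SE 0.15, adjusted p = 2.3e-09). Cpa3, a carboxypeptidase shared with mast cells, rose by 2.39 (SE 0.17). All 3 genes lay between the ends in Pre-BMPs, at averages of 1117, 591 and 1568 CPM. The basophil list as a whole had 7 of 13 measured members higher, 2 lower and 4 not called, with a median of 1.35. The pair that fell, Prg2 and Prg3, encode the major basic proteins of eosinophil granules. Prg2 had 1223, 1302 and 1928 CPM in Pro-BMPs against 270, 134 and 267 CPM in basophils, and Prg3 fell by 4.34 (SE 0.51). The mast cell proteases Cma1 and Tpsb2 were low at both ends, at averages of 0.992 and 0.554 CPM for Cma1 and at 0 and 0.0231 CPM for Tpsb2, against 141 and 33.6 CPM in Pre-BMPs. Gzmb likewise averaged 13.3 and 19.99 CPM at the ends and 205 CPM in Pre-BMPs. None of these last 3 was called between basophils and Pro-BMPs, and they were picked after their values were seen.

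Enzymes of lipid mediators went both ways: of 14 measured, 4 rose, 5 fell and 5 were not called. The shares that rose and fell, 28.6% and 35.7%, compare with 19.3% and 21.8% of all genes. Alox5, which starts leukotriene synthesis, rose from 74.7, 51.7 and 98.2 CPM to 1571, 1570 and 1620 CPM. Alox15, a 12/15-lipoxygenase, rose from 2.56, 0.517 and 0 CPM to 1196, 977 and 1017 CPM. Lta4h, which turns leukotriene A4 into leukotriene B4, fell from 1131, 1242 and 1131 CPM to 195, 214 and 230 CPM (log2 difference -2.46, SE 0.08, adjusted p = 8.1e-09). The leukotriene genes therefore moved in opposite directions. Ptges3 fell by 1.52 and Tbxas1, thromboxane synthase, fell by 2.26 on the log2 scale.

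Cytokine and chemokine genes were mostly higher in basophils, with 9 of 13 measured members up, 2 down and a median of 4.36. Il4, the cytokine most tied to basophils, had 0.356, 0.172 and 5.09 CPM in Pro-BMPs and 121, 110 and 115 CPM in basophils. Ccl3 rose from 0, 0 and 1.06 CPM to 605, 513 and 471 CPM, Ccl6 rose by 7.28 (SE 0.34) and Csf1, the macrophage growth factor, rose by 4.36 (SE 0.34). The members that fell were Tslp, from 8.64 ± 3.46 to 0.162 ± 0.281 CPM, and Vegfa, from 32.5 ± 10.3 to 1.40 ± 0.869 CPM (SD, n = 3 each).

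Receptors for chemokines, complement and lipids had a median of 4.73, with 25 of 33 measured members higher, 1 lower and 7 not called. The complement receptors C3ar1 and C5ar1 had no read in any Pro-BMP library. In basophils C3ar1 had 443, 354 and 259 CPM, at least 5906-fold higher, and C5ar1 had 225, 204 and 127 CPM, at least 3106-fold higher. Ccr2 rose from 1.24, 3.00 and 1.90 CPM to 397, 288 and 221 CPM, and Ccr3, the eotaxin receptor, rose from 0, 1.64 and 0 CPM to 106, 97.2 and 60.3 CPM. Cxcr2 rose from 18.2, 17.3 and 17.6 CPM to 810, 712 and 538 CPM. Basophil libraries spread more among themselves at these receptors than at the IgE receptor chains, with replicate 3 lowest for all 5. Every basophil library was still above every Pro-BMP library. That was part of the rule that named C3ar1 and C5ar1, and 53.4% of all genes did not overlap in either direction. Ptger2, a prostaglandin E2 receptor, went against the list, from 2.91, 8.15 and 5.84 CPM to no read in basophils, at least 81.3-fold lower.

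Cytokine receptors were divided, with 15 of 31 measured higher, 9 lower and 7 not called. The shares, 48.4% higher and 29.0% lower, compare with 19.3% and 21.8% of all genes. Csf2rb, the beta chain shared by the interleukin-3, interleukin-5 and GM-CSF receptors, rose from 122, 114 and 184 CPM to 2505, 1577 and 1844 CPM. Il18r1 and Il7r had averages of 0.0398 and 0.0626 CPM in Pro-BMPs and 153 ± 26.1 and 118 ± 15.4 CPM (SD, n = 3) in basophils. Csf3r, the G-CSF receptor of the neutrophil line, fell from 168, 175 and 201 CPM to 0.0925, 0.578 and 0.115 CPM. Csf2rb and Csf3r therefore moved in opposite directions. Il1rl1, the interleukin-33 receptor, shows a limit of the test. It had 56.5, 36.5 and 49.2 CPM in Pro-BMPs and 198, 181 and 190 CPM in basophils, but its spread estimate also takes in DN-GMPs at 0, 0 and 1.04 CPM, and it was not called (log2 difference 2.02, SE 1.34, adjusted p = 0.25). With basophils and Pro-BMPs fitted alone it was called (adjusted p = 0.00023), and likewise Gata1 (adjusted p = 0.20 against 0.0020). Both were picked after their values were seen.

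Paired inhibitory and activating surface receptors had 16 of 30 measured members higher, 5 lower and 9 not called, with a median of 0.93. The shares, 53.3% higher and 16.7% lower, compare with 19.3% and 21.8% of all genes. Cd200r1 rose from 10.6, 11.2 and 14.7 CPM to 313, 295 and 255 CPM. Its near-copy Cd200r3, an activating receptor of basophils and mast cells, averaged 2.47 and 1677 CPM and was picked after its values were seen; reads of such close relatives can be split between them in counting. Siglecg fell from 47.9, 41.5 and 35.1 CPM to 0, 0 and 3.25 CPM, and Cd24a fell by 1.88 (SE 0.23). Clec12a, an inhibitory receptor for uric acid crystals, was among the genes alike at both ends and is described with the dips.

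Adhesion genes rose at 17 of 30 measured members, fell at 3 and were not called at 10, with a median of 1.503. The shares, 56.7% higher and 10% lower, compare with 19.3% and 21.8% of all genes. Cdh1 differed by 4.64 (SE 0.49, adjusted p = 2.2e-05). The catenins, which tie cadherins to the cytoskeleton, did not move together. Ctnna1, alpha-catenin, rose by 2.76 (SE 0.22), Ctnnb1, beta-catenin, was alike at 207, 216 and 195 against 197, 210 and 182 CPM, and Ctnnd1, p120-catenin, was low and fell by 1.77 (SE 0.51), a call that was lost with voom weights (adjusted p = 0.057) and without any of 3 single libraries (Pro-BMP replicate 1 or 2, or basophil replicate 1). The beta integrin Itgb7 rose from 26.3, 17.996 and 38.9 CPM to 1246, 1126 and 1053 CPM, and Itgb2, the shared chain of leukocyte integrins, rose from 52.7, 39.4 and 38.6 CPM to 1212, 1068 and 1155 CPM. Itga4, the partner of Itgb7, fell from 139, 105.3 and 122 CPM to 23.2, 37.7 and 29.0 CPM, so the 2 chains of that integrin moved in opposite directions. Ctnna1 and Ctnnb1 were picked after their values were seen.

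Transcription factors of blood cells had 46 of 87 measured members higher, 21 lower and 20 not called, with a median of 0.66. The share that rose was 52.9%, against 19.3% of all genes. The share that fell, 24.1%, was near the 21.8% of all genes. Gata2, needed for the basophil and mast cell path, rose from 207, 95.6 and 190 CPM to 2278, 1860 and 2173 CPM. Ets1 rose from 11.97, 23.2 and 22.6 CPM to 1070, 994 and 1030 CPM, Klf6 rose by 4.32 (SE 0.28) and Runx1 rose from 85.2 ± 6.98 to 386 ± 13.4 CPM (SD, n = 3 each). Cebpe, which drives late neutrophil and eosinophil granules, fell from 90.5, 69.3 and 77.04 CPM to 0.139, 0 and 0.577 CPM. Myb and Myc, both tied to proliferating progenitors, fell by 2.78 (SE 0.11) and 1.83 (SE 0.13). Mitf, a mast cell regulator, fell from 6.50, 1.19 and 4.59 CPM to 0, 0.416 and 0 CPM. Cebpa, picked after its values were seen, was not lost with the neutrophil genes: it rose from 33.0 ± 6.84 to 138 ± 23.9 CPM (SD, n = 3 each).

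The 12 genes with the greatest fall were at or near 0 in basophils. Ak4, a mitochondrial adenylate kinase, had 53.8, 39.4 and 68.7 CPM in Pro-BMPs and no read in basophils, at least 779-fold lower. Ppic, a cyclophilin, was at least 754-fold lower and Cnn3, an actin-binding calponin, at least 544-fold lower. Mef2c, a transcription factor, fell from 29.1, 25.3 and 32.4 CPM to 0, 0.0231 and 0 CPM and, unlike these, still had 25.4, 36.5 and 26.2 CPM in Pre-BMPs. Thbs1, thrombospondin, is the least even of the 12, at 97.0, 3.32 and 22.6 CPM in Pro-BMPs, and its call was lost with voom weights (adjusted p = 0.12). At the other end, besides the complement receptors, Alox8 (144 to 177 CPM), L1cam (144 to 266 CPM), Muc20 (88.0 to 116 CPM), Fam110c (58.2 to 108 CPM) and Cd226 (48.8 to 69.9 CPM) were read in each basophil library and in no Pro-BMP library.

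Primary granule genes of neutrophils fell, but not evenly. Of 24 measured, 17 were lower in basophils, 5 higher and 2 not called, with a median of -0.96. Elane fell by 7.85 (SE 0.25) and Prtn3, proteinase 3, fell by 6.76 (SE 0.22), both with an adjusted p of 8.1e-09. Mpo, myeloperoxidase, picked after its values were seen, still had 1842, 2651 and 2595 CPM in basophils against 10775, 11377 and 10332 CPM in Pro-BMPs. Ctsg, cathepsin G, kept most of its level: 1597, 1620 and 1482 CPM in Pro-BMPs and 977, 1225 and 1362 CPM in basophils, a fall of 0.41 (SE 0.10) that is also within the margin for alike genes and was not called without the variance trend (adjusted p = 0.053). Ctsg was lowest in Pre-BMPs, at 742, 638 and 667 CPM. Proteases of this granule thus ranged from near loss to near equality. Among the members that rose were Hk3 and Cd63, which encodes a granule membrane tetraspanin found also on activated basophils.

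Genes of later neutrophil granules and secretory vesicles did not share that fall: 12 of 34 measured were higher in basophils, 9 lower and 13 not called. These shares, 35.3% higher and 26.5% lower, compare with 19.3% and 21.8% of all genes. Cyba, a subunit of the NADPH oxidase, rose from 171, 180 and 175 CPM to 425, 401 and 433 CPM, whereas Cybb, its partner in the membrane, fell from 6.66, 14.5 and 14.9 CPM to 0, 0.0463 and 0 CPM. Anxa1 rose by 1.66 (SE 0.09). The late granule genes Ltf and Ly6g were low at both ends, with averages of 1.52 and 3.34 CPM for Ltf and 0.387 and 0.571 CPM for Ly6g. The summed level of the list was 2331 to 2432 CPM in Pro-BMPs and 5445 to 6212 CPM in basophils, and the part of any neutrophils in it was not tested. Hp, haptoglobin, fell from 191, 228 and 246 CPM to 44.0, 45.8 and 42.0 CPM, with a lower level still, 14.1 to 17.3 CPM, in Pre-BMPs.

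Eosinophil genes fell at 7 of 14 measured members, rose at 4 and were not called at 3. Those that fell include Prg2, Prg3 and Ear6, a ribonuclease gene of a family of close copies, which went from 12.9, 36.1 and 69.5 CPM to no read. Those that rose, Il4, Alox15, Ccr3 and Xbp1, are also genes of basophils or of secretory cells. The list summed to 2415 to 3548 CPM in Pro-BMPs and 2132 to 2421 CPM in basophils, and the part of eosinophil progenitors in the Pro-BMP gate was not tested. Xbp1 was not called with quantile normalization (adjusted p = 0.28) or with reads scaled to listed genes (adjusted p = 0.050).

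Stem and multipotent progenitor genes fell at 17 of 30 measured members, rose at 5 and were not called at 8, with a median of -2.43. Cd34 and Kit fell by 3.45 and 3.89, and Sox4, a progenitor transcription factor, fell from 101, 103 and 112 CPM to 19.4, 22.3 and 24.4 CPM. Of the 5 that rose, Ifitm1, Gata2 and Cd48 had the smallest adjusted p. Monocyte and dendritic cell genes were called about as often as all genes (19.3% higher and 21.8% lower), with 6 of 28 higher, 8 lower and 14 not called. Ly6c2 fell from 289, 359 and 356 CPM to 4.67, 7.61 and 4.47 CPM, and Lgals3, galectin-3, rose from 0.817, 2.59 and 2.02 CPM to 510, 455 and 404 CPM.

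Among lymphoid genes, 11 of the 32 chosen T, NK and innate lymphoid genes have a row in the table, and 5 of them rose, 1 fell and 5 were not called. Il7r had 135, 113 and 106 CPM in basophils and Cd7, picked after its values were seen, had 251, 226 and 194 CPM. Lck, Prf1, Ccl5 and Klrk1, more strictly tied to T and NK cells, averaged 5.47, 2.72, 0.370 and 0.201 CPM in basophils and were not called. The list summed to 879 to 981 CPM in Pro-BMPs and 887 to 914 CPM in basophils. Nkg7, the member that fell, made up most of the Pro-BMP sum, at 853, 962 and 866 CPM. It had 418, 487 and 532 CPM in basophils, so the near-equal sums hide the rise of other members. The part of lymphoid cells in the basophil sort was not tested. Of 8 measured B cell genes 3 rose (37.5%) and 1 fell (12.5%), against 19.3% and 21.8% of all genes. They summed to 80.3 to 95.3 CPM and 145 to 151 CPM. Their median was -0.24, or 0.86 with genes at 0 in 1 population set to their bound. Haemoglobin genes did not pass the test, with averages of at most 2.46 CPM in Pro-BMPs and 2.51 CPM in basophils, both for Hbb-b1. Megakaryocyte and erythroid genes had 5 of 30 higher (16.7%), 8 lower (26.7%) and 17 not called, near the shares of all genes (19.3% and 21.8%). They summed to 747 to 806 CPM in Pro-BMPs and 2168 to 2585 CPM in basophils. Itga2b made up much of the basophil sum, at averages of 132 CPM in Pro-BMPs and 1341 CPM in basophils. Nfe2, also among the 5 that rose, averaged 233 and 555 CPM. The part of megakaryocyte or erythroid cells in the sort was not tested. Of the 7 measured stromal and endothelial genes 1 rose (14.3%) and 2 fell (28.6%), with sums of 58.1 to 76.8 CPM and 9.53 to 20.1 CPM.

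Mast cell genes rose at 11 of 16 measured members, fell at 3 and were not called at 2, with a median of 2.32 and sums of 4421 to 4668 CPM in Pro-BMPs and 14734 to 15699 CPM in basophils. Fcer1a, Cpa3, Gata2 and Itgb7, all of them genes of basophils too, are among those that rose, and Kit, Mitf and Ctsg are those that fell. No member was at 0 in all basophil libraries, and the part of mast cells in the sort was not tested.

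Genes of the nucleolus were uniformly lower in basophils. All 42 ribosome biogenesis and Myc target genes were lower in basophils, with a median of -1.94, and all 42 were also lower under both other scalings. Ncl, nucleolin, had 948, 949 and 923 CPM in Pro-BMPs and 241, 256 and 245 CPM in basophils. Wdr12, of a complex that matures the large ribosomal subunit, fell by 3.05 (SE 0.13) and Rrp1b fell by 3.39 (SE 0.18). The groups did not overlap at any of these 3 genes, which were picked for the smallest adjusted p in the list. Over all genes 53.4% did not overlap in either direction.

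DNA replication genes fell too, but by less. Of 50 S phase genes 29 were lower, 3 higher and 18 not called, with a median of -0.66. Mcm7, of the replicative helicase, fell from 361, 359 and 335 CPM to 149, 177 and 170 CPM, and Gins1 fell by 2.49 (SE 0.22). The exceptions were Rfc2, Slbp and E2f2, the last of which rose from 3.46, 1.90 and 5.41 CPM to 96.7, 89.2 and 96.6 CPM. Mitotic genes differed little. Of 46 G2 and M phase genes, 37 were alike within the margin, against 22.1% of all genes. The calls were 11 lower and 4 higher, 23.9% and 8.70% against 21.8% and 19.3% of all genes, with 31 not called. The lower share was thus near that of all genes. The list median was -0.13. Scaled to listed genes 21 were lower and 1 higher, and with quantile normalization 17 and 0, so the calls in this list depend on the scaling. Cdk1, picked after its values were seen, had 179, 210 and 192 CPM in Pro-BMPs and 160, 151 and 229 CPM in basophils. Mki67 had 170, 205 and 246 CPM against 272, 342 and 385 CPM, a difference of 0.69 (SE 0.19, adjusted p = 0.012) that was not called with quantile normalization (adjusted p = 0.16), with reads scaled to listed genes (adjusted p = 0.12) or without Pro-BMP replicate 1 (adjusted p = 0.051). Ccnb1 and Aurkb fell by 0.67 and 0.83.

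Regulators of entry into and exit from the cycle changed in 18 of 24 measured members, 14 up and 4 down. Cdkn1b, the inhibitor p27, rose from 8.30, 10.8 and 7.62 CPM to 49.98, 63.4 and 52.0 CPM, and Btg1, an antiproliferative gene, rose by 2.83 (SE 0.21). Cdk4 and Cdk6 fell by 1.44 (SE 0.10) and 1.54 (SE 0.17), while Ccnd3, their D cyclin, rose from 144, 151 and 127 CPM to 597, 601 and 572 CPM. The plot of list members shows the order of these programs, from ribosome biogenesis to mitosis.

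**Figure D3:**
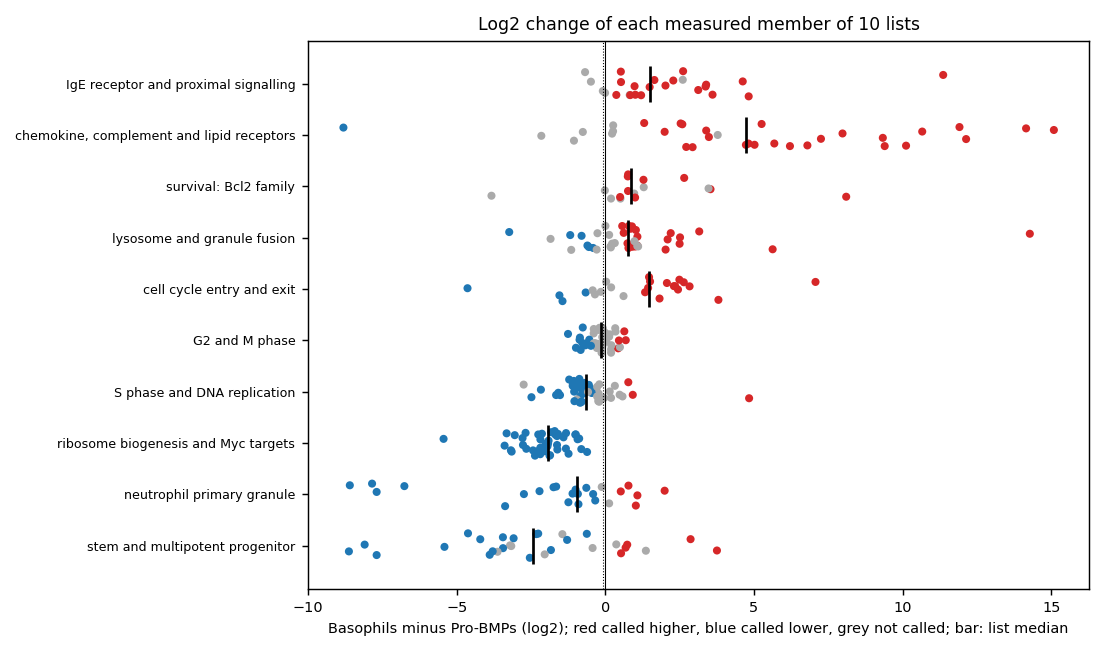
Log2 difference, basophils minus Pro-BMPs (horizontal axis), of each measured member of 10 gene lists; red points were called higher, blue lower and grey not called, the black bar is the list median and the dotted line the median of all genes. Ribosome biogenesis lies wholly below 0 (median -1.94), G2 and M phase is centred near it (median -0.13), and the chemokine, complement and lipid receptors lie mostly above 0 (median 4.73).

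Some genes were alike in basophils and Pro-BMPs but fell in the Pre-BMPs between them. A dip required Pre-BMPs below the mean of both ends by at least 1 on the log2 scale (adjusted p under 0.05, limma). All 3 Pre-BMP libraries also had to lie below all 6 others in log2 value, with the ends alike within 1. The whole rule held for 47 genes (0.323% of those tested). In 46 of the 47 the DN-GMP libraries also lay above all Pre-BMP libraries, the exception being Hipk2. With the margin at 0.58 the count was 14, and with reads scaled to listed genes it was 30, of which 17 were shared. Leaving out Pro-BMP replicate 3 gave 31 and leaving out basophil replicate 1 gave 29. In each of 17 alternatives that keep the margin of 1, 12 of the 47 genes met the rule: Ckap4, Clec12a, F630028O10Rik, Gbe1, Gnal, Hipk2, Hspa2, Igsf6, Msantd3, Ncf4, Pgd and Prdx5.

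**Figure D4:**
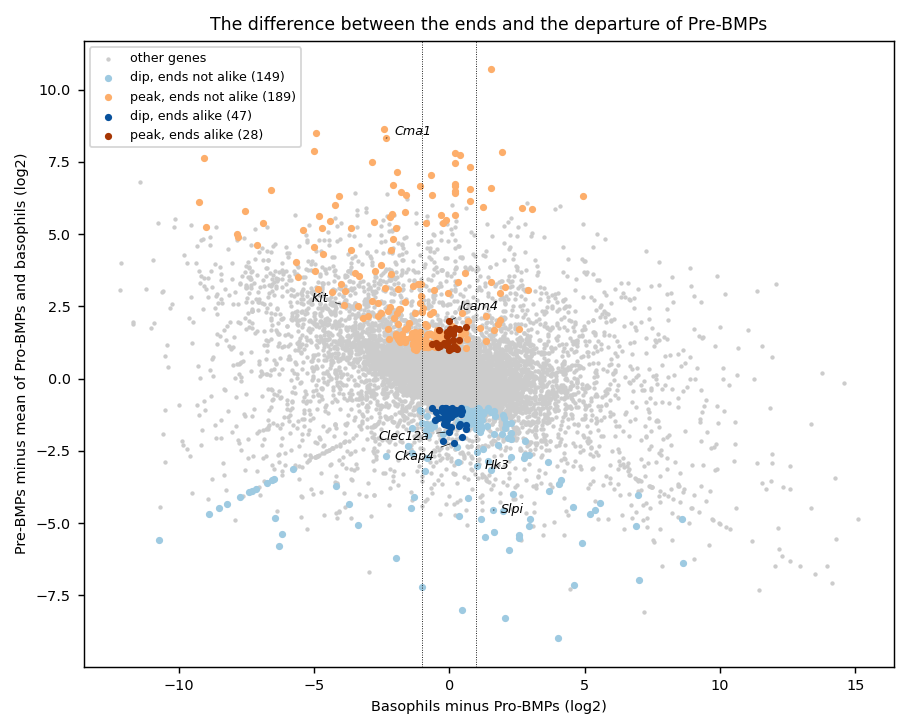
Each point is a gene, with the log2 difference between basophils and Pro-BMPs on the horizontal axis and that between Pre-BMPs and the mean of both on the vertical axis; dotted lines mark 1 in either direction. The 47 dips and 28 peaks with ends alike (dark points) lie between the lines, below and above 0, while Slpi and Hk3 lie to the right of them.

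The deepest of these dips was at Ckap4, a membrane protein of the endoplasmic reticulum. It had 144, 134 and 134 CPM in Pro-BMPs, 35.8, 32.2 and 26.4 CPM in Pre-BMPs and 167, 145 and 149 CPM in basophils, so Pre-BMPs were lower by 2.22 on the log2 scale (SE 0.12, adjusted p = 1.2e-06). Clec12a had 524, 652 and 522 CPM, then 171, 140 and 160 CPM, then 541, 545 and 584 CPM. The ends differed by -0.02 (95% interval -0.24 to 0.21), while Pre-BMPs lay 1.84 below their mean (SE 0.09). Igsf6, an immunoglobulin family gene of myeloid cells, had 269, 275 and 281 CPM, then 78.5, 76.6 and 83.4 CPM, then 476, 363 and 331 CPM, and its ends differed by 0.49 (SE 0.13), a call inside the margin. The rule for a dip required every Pre-BMP library to lie below every end library, so that order was fixed for these 3 genes by their selection.

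Further dips with ends alike were measured at 5 other genes. Gsr, glutathione reductase, had 488, 512 and 437 CPM, then 204, 186 and 197 CPM, then 847, 736 and 646 CPM. Prdx5, a peroxiredoxin, had 198, 230 and 219 CPM, then 89.3, 76.4 and 84.5 CPM, then 283, 271 and 305 CPM. Pgd, of the pentose phosphate pathway, had 239, 238 and 193 CPM, then 94.0, 85.2 and 85.8 CPM, then 219, 198 and 185 CPM. Ncf4, a subunit of the NADPH oxidase, averaged 77.3, 32.9 and 81.5 CPM, and Pkm, pyruvate kinase, 990, 464 and 880 CPM. Pgd, Ncf4 and Pkm, with the genes of the next paragraph, were picked after their values were seen.

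Spi1, which encodes the myeloid transcription factor PU.1, was the only dip with ends alike among the 87 transcription factors. It had 212, 229 and 242 CPM in Pro-BMPs, 136, 119 and 110 CPM in Pre-BMPs and 353, 279 and 306 CPM in basophils. The dip was 1.13 deep (SE 0.10) and the ends differed by 0.45 (SE 0.12, adjusted p = 0.0087). Rrm2, the ribonucleotide reductase subunit, dipped from 272 ± 21.0 to 135 CPM and stood at 313 ± 55.9 CPM in basophils (SD, n = 3), the only dip with ends alike among the 50 S phase genes. Cd44, the hyaluronan receptor, averaged 107, 54.5 and 116 CPM, and Tnfrsf1b, a TNF receptor, 94.2, 45.9 and 111 CPM. Spi1, Rrm2, Pkm and Cd44 did not meet the whole rule under quantile normalization or with reads scaled to listed genes.

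Slpi and Hk3 dipped further, but with their ends apart. Slpi had 68.7, 60.8 and 64.8 CPM in Pro-BMPs, 9.11, 3.28 and 3.81 CPM in Pre-BMPs and 202, 185 and 211 CPM in basophils. Its dip was 4.55 deep (SE 0.26, adjusted p = 1.9e-06) and basophils exceeded Pro-BMPs by 1.62 (SE 0.30, adjusted p = 0.0012). Hk3 had 348, 323 and 289 CPM, then 55.7, 55.2 and 58.0 CPM, then 729, 637 and 590 CPM, a dip of 3.02 (SE 0.11) with ends 1.03 apart (SE 0.12). Basophils therefore lay above Pro-BMPs at both genes. DN-GMPs lay between them for Slpi, at 146 to 167 CPM, and had 448 to 617 CPM of Hk3, above Pro-BMPs and overlapping basophils. Of 149 genes that met the dip test with ends not alike, 75 were higher in basophils, 25 were lower and 49 were not called. The test used log2 values, in which a gene without reads takes a value set by library size. Thbs1, with no read in any Pre-BMP or basophil library, passed in this way and is among the 25, although its reads do not dip below basophils. How many other genes passed in this way was not counted. Adam8, a metalloprotease of myeloid cells, is one of the 75, at 2.17, 0.569 and 283 CPM on average, and Ncf1, a further NADPH oxidase subunit picked after its values were seen, another, at 139, 47.1 and 672 CPM. Bcar3 and Kcnj2 met the dip test but not with voom weights (adjusted p = 0.11 and 0.063).

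**Figure D5:**
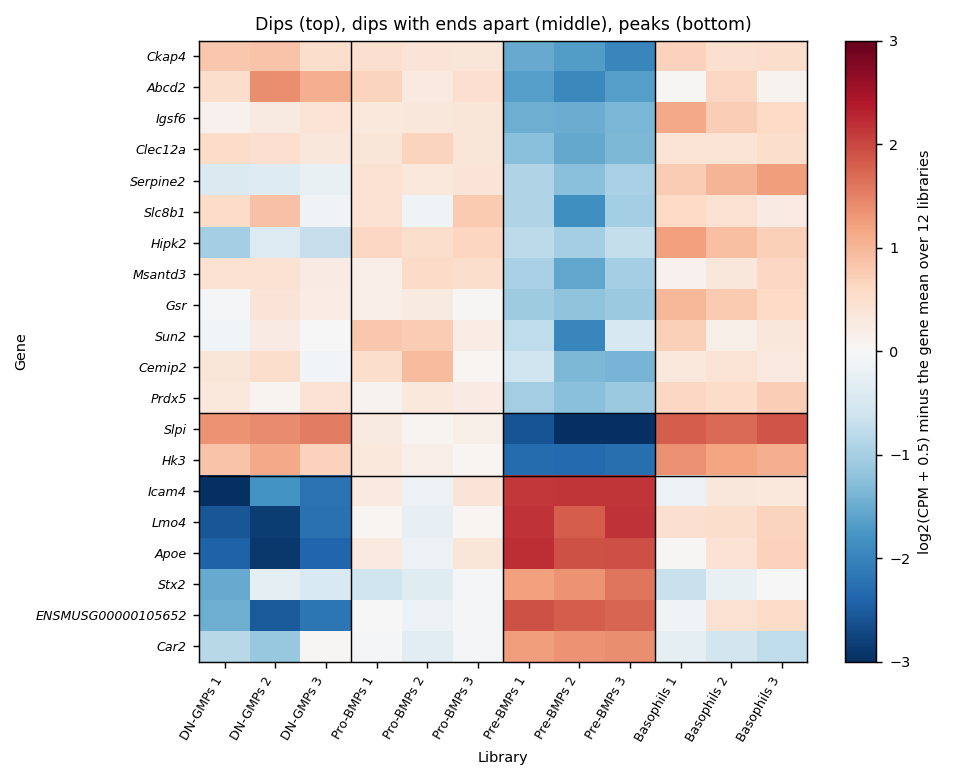
Colours give log2(CPM + 0.5) minus the gene's mean over the 12 libraries (red above, blue below), for the 12 deepest dips with ends alike, for Slpi and Hk3, and for the 6 highest peaks with ends alike. The Pre-BMP columns are blue in every dip row and red in every peak row, and the DN-GMP columns are near the ends in most dip rows and blue in most peak rows.

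The opposite pattern, a peak in Pre-BMPs with ends alike, held for 28 genes (0.192%), and in all 28 the DN-GMP libraries lay below all Pre-BMP libraries. The count was 4 with the margin at 0.58, 17 without Pro-BMP replicate 1 and 16 without basophil replicate 2, of which 11 were shared. With reads scaled to listed genes it was 30, of which 16 were shared. In each of the 17 alternatives that keep the margin of 1, 7 of the 28 genes met the rule: Angpt1, Apoe, Fam126a, Golm1, Lgals9, Stx2 and Vamp5. Apoe, apolipoprotein E, had 394, 284 and 412 CPM in Pro-BMPs, 1478, 1198 and 1234 CPM in Pre-BMPs and 328, 430 and 520 CPM in basophils. Lmo4, a transcriptional cofactor, had 222, 181 and 224 CPM, then 973, 752 and 967 CPM, then 298, 308 and 340 CPM. Icam4, a red cell adhesion protein, had 23.9, 17.1 and 25.6 CPM, then 85.4, 86.5 and 87.8 CPM, then 17.0, 24.6 and 24.3 CPM. Car2, carbonic anhydrase, and Stx2, a syntaxin, averaged 141 and 111 CPM in Pre-BMPs against at most 50.2 CPM at either end. Icam4 did not meet the whole rule with reads scaled to listed genes, nor did Car2 with either scaling. Lmo4 met it in 12 of the 17 alternatives. Of the 30 megakaryocyte and erythroid genes, Icam4 and Car2 peaked with ends alike and 8 more peaked with ends not alike by the margin. Of all 14560 genes 189 peaked with ends not alike, of which 9 were higher in basophils, 83 lower and 97 not called. Among the 8 was Klf1, the erythroid regulator, at 19.7, 124 and 8.80 CPM, which was picked after its values were seen. Kit also peaked in Pre-BMPs, at 381, 489 and 520 CPM.

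The 3 searched motifs were each found in a minority of the dip genes' promoter windows. Of the 47, 35 have a promoter in the RefSeq table, with 46 windows. The C/EBP motif is in 15.2% of these windows, against 9.56% of all windows, the PU.1 motif in 4.35% against 7.69% and the GATA motif in 8.70% against 9.99%. They stand for 7 windows of 6 genes (C/EBP), 2 windows of 1 gene (PU.1) and 4 windows of 4 genes (GATA). These shares are a description that rests on few genes, and windows without a match say nothing about the factors.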

How the data were processed

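Populations were sorted from mouse bone marrow, and their RNA was made into cDNA libraries with SmartSeq v4 and Nextera XT kits, per the labels' protocols. The submitters' processing notes name Trimmomatic, STAR, HTSeq and deepTools; the build is not given in the sources used here, nor is the annotation. The authors deposited log2 values, and 0.5 read added to each count and a scaled library size account for every value: reads came out whole for 100% of values within 0.001 read. CPM here are those reads per 1000000 of the deposited table's scaled library size, with nothing added. The 3 rows that name no gene were left out; they held 7.69% to 12.6% (no feature), 3.63% to 4.05% (ambiguous) and 8.51% to 10.6% (not unique) of the reads in the 6 libraries.

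The log2 values of 14560 genes in all 12 libraries were fitted with limma 3.58.1 in R 4.3.3 (4 groups, variance trend, no block), and p-values were adjusted over all genes by the Benjamini-Hochberg method. The script was tested on simulated data. Gene identifiers were matched to GENCODE M21 (GRCm38), and promoters to RefSeq (GRCm38.p6) by symbol. Tables and figures used Python 3.11.15. The 3 replicates of a population are separate samples from 3 mice, but the labels tie no number to a mouse, and p-values therefore describe only how these libraries vary. Neither kit keeps the strand, which leaves overlapping and antisense genes indistinguishable.

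Named genes were the 4 markers and 8 gate genes; the 12 greatest rises and falls among called genes with at least 10 CPM in the higher population and no overlap; in each list up to 3 called genes per direction with the smallest adjusted p, and a member alone against at least 3 others; the 12 deepest dips and 6 highest peaks with ends alike; and the 4 deepest dips that miss only that margin. Members and lists were chosen with earlier results of these data known. Alternatives were quantile normalization, scaling to listed genes, 5 reads added, a filter of 1 CPM in 3 libraries, voom weights, no variance trend, the compared populations fitted alone, a replicate block, a margin of 0.58, and leaving out each library.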

Additional observations from a re-analysis of the deposited data

How the results depend on the processing

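Counts of genes higher and lower in basophils stayed within 1.5 times of 2815 and 3174 in every alternative, at 2094 and 4242 with reads scaled to listed genes and at 2371 to 2524 and 2606 to 2998 without single libraries. The 47 dips became 30 with reads scaled to listed genes, 14 with a margin of 0.58 and 29 to 50 without single libraries. The 28 peaks became 4 with that margin and 16 to 23 without single libraries. The narrower margin leaves fewer genes by its construction; the cause of the other moves was not tested. Same-numbered Pro-BMP and basophil libraries deviated together hardly at all (r = 0.021, 0.045 and 0.0081 over 8128 genes for numbers 1, 2 and 3). Different-numbered libraries were not set beside them, so these values do not settle whether the numbers pair the libraries. With a replicate block the counts were 2722 higher, 3053 lower, 43 dips and 27 peaks. Of the 199 named genes none reversed in any alternative, and 12 lost a call in at least 1: Thbs1, Ctnnd1, Xbp1, Ctsg, Pf4, Rag2, Hmgb2, Mki67, Kif23, Oasl2, Bcar3 and Kcnj2. Setting genes at 0 in 1 population to their bound moved the median of 2 of the 30 lists, that of the B cell list by 1.10 and that of the basophil granule list by 0.17.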

Other observations

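Most genes of the secretory path were alike at both ends by the margin of 1 on the log2 scale, though many were also called. Of 37 genes of protein synthesis and folding in the endoplasmic reticulum, 30 were alike by that margin, against 22.1% of all genes. Among the 37, 16 (43.2%) were called lower and 6 (16.2%) higher, against 21.8% and 19.3% of all genes. With reads scaled to listed genes 23 were lower and 3 higher. Pdia6 fell from 953 to 592 CPM on average and Ero1l, an oxidase of disulfide bonds, rose from 110 to 391 CPM. Of 24 glycolysis genes 9 were alike within that margin, 8 rose (33.3%) and 10 fell (41.7%), or 7 and 12 with reads scaled to listed genes. Hk2 and Pfkp, which act early in the pathway, rose to 160 and 699 CPM from 37.8 and 145 CPM, whereas Ldhb, a lactate dehydrogenase subunit, fell from 77.4 to 0.293 CPM. Of 39 lysosome and granule fusion genes 20 rose and 6 fell. Sytl3, a synaptotagmin-like protein, had 305, 263 and 282 CPM in basophils and a mean of 0.00698 CPM in Pro-BMPs, and Stx3, a syntaxin of granule fusion, rose from 56.6 to 499 CPM.

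Of 16 measured genes of the Bcl2 family and its partners, 9 rose and none fell, or 6 and 1 with reads scaled to listed genes. Mcl1, a survival factor of granulocytes, rose from 130 to 260 CPM, and Bbc3, which promotes cell death, rose from 2.42 to 28.3 CPM. Of 26 immediate early and dissociation stress genes 15 rose and 5 fell: Junb rose from 34.4 to 164 CPM and Dusp2 fell from 35.02 to 0.486 CPM. The list summed to 1681 to 1836 CPM in Pro-BMPs and 2068 to 2224 CPM in basophils, and the part of handling during the sort was not tested. Of 27 interferon response genes 11 rose (40.7%) and 4 fell (14.8%), with Ifitm1 at 177 and 1260 CPM and Ifi47 at 177 and 67.8 CPM. Of 26 feedback regulators of cytokine signalling 8 rose (30.8%) and 6 fell (23.1%), against 19.3% and 21.8% of all genes. Dusp6, a phosphatase that acts on ERK, rose from 25.7 to 203 CPM. Spry1, a brake on receptor tyrosine kinase signals, fell from 5.30 to 0.0154 CPM.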
